A study of Homo sapiens with 10 samples.

Results

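The interferon and IL10 receptor chains are 6 genes, IFNAR1, IFNAR2, IFNGR1, IFNGR2, IL10RA and IL10RB, which were chosen by name among the protein-coding rows of the expression tables. All 6 had a row in each table, out of 60603 genes and 19975 protein-coding genes. The data come from NB4, a cell line of acute promyelocytic leukemia, the cells being 1 line in every group. In the GSE1 knockdown experiment, NB4 cells received lentivirus of pLKO.1 puro, either without insert (EV) or with 1 of the hairpins shA1 and shB2 that target GSE1, a chromatin protein of LSD1 complexes, and RNA was taken after 48 h. In the LSD1 inhibition experiment, NB4 was given DMSO or the LSD1 inhibitor MC2580 at 2 µM for 24 h, the compound being spelled MC280 in the sample titles. Each of the 5 groups has 2 replicates, which gives 6 libraries in the first experiment and 4 in the second.

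Class II cytokine receptors work in pairs of unlike chains. Type I interferons bind IFNAR2 with high affinity and bring in IFNAR1, interferon gamma binds IFNGR1 and brings in IFNGR2, and IL10 binds IL10RA and brings in IL10RB, a chain that several IL10 family receptors share. The chains have no kinase activity of their own and signal through bound Janus kinases, which activate STAT proteins. IL10RA is known as a chain of blood cells, whereas the other chains are found in most tissues.

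The values used are base means, the authors' averages over all the libraries of an experiment of counts scaled for depth. Each base mean therefore mixes control and treated libraries, in the ratio of 2 EV to 4 hairpin libraries in one experiment and 2 to 2 in the other. No value per library or per condition was used, so no test between conditions could be made and a change within an experiment cannot be read from these levels. The errors below are counting errors only, with no spread between replicates. The smallest base means bunched at 6 values in the knockdown table and at 4 in the inhibition table, as single reads in libraries of different depth would give. From these, the size factors of the libraries ran from 0.786 to 1.24 and from 0.847 to 1.26, or about 31900000 to 50500000 and 34900000 to 52100000 counts per library.

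All the receptor chains were well above the detection level in both experiments, and the interferon gamma receptor chains were the most abundant of them per kb of exon. With the longest coding sequence as length in place of exons, IL10RB came first in both experiments. In the knockdown experiment the base mean was 1468 for IFNGR1, 939 for IFNGR2, 1540.0 for IL10RB, 1081 for IL10RA, 1457 for IFNAR1 and 816 for IFNAR2. In the inhibition experiment it was 1158 for IFNGR1, 1106 for IFNGR2, 1069 for IL10RB, 157 for IL10RA, 1019 for IFNAR1 and 473 for IFNAR2. IL10RA was the one chain with a base mean in one experiment several times that in the other. The counting standard error was at most 1.61% of the value in the knockdown experiment (IFNAR2) and at most 4.34% in the inhibition experiment (IL10RA).

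Because genes differ in length, levels were compared between chains as base mean per kb of exon, with the counting standard error. In the knockdown experiment IFNGR1, the ligand-binding chain of the interferon gamma receptor, came first at 463 ± 5.56 per kb, followed by its partner IFNGR2 at 390.0 ± 5.86. IL10RB at 297 ± 3.49 and IL10RA at 296 ± 4.15 were next. Their difference of 1.43 per kb had a 95% counting interval of -9.20 to 12.05, so with the exon length they could not be ordered. IL10RA over IL10RB was lower with mean transcript length (0.522), the longest transcript (0.790) and the longest coding sequence (0.395), which put IL10RB ahead. The type I interferon receptor chains were lowest, IFNAR1 at 207 ± 2.50 and IFNAR2 at 178 ± 2.87 per kb. Every other pair of neighbours in this order differed by more than its counting interval, the smallest step being 28.8 per kb from IFNAR1 to IFNAR2 (21.3 to 36.3). The distance from the highest to the lowest chain was 2.60-fold. The place of the type I chains depended on the length used. With mean transcript length IL10RA was lowest at 296 per kb, below IFNAR1 at 319 and IFNAR2 at 353. With the longest coding sequence IFNAR1 at 872 was above IL10RA at 624, and IFNAR2 was still lowest at 528.

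In the inhibition experiment IFNGR2 came first at 459 ± 7.50 per kb and IFNGR1 second at 365 ± 5.83. IL10RB followed at 206 ± 3.43, IFNAR1 at 145 ± 2.46 and IFNAR2 at 103 ± 2.58. IL10RA was last at 42.8 ± 1.86 per kb, and the distance from highest to lowest chain was 10.7-fold. All neighbours in this order differed by more than their counting intervals, the smallest step being that of 41.6 per kb between IFNAR1 and IFNAR2 (34.6 to 48.6).

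**Figure D1:**
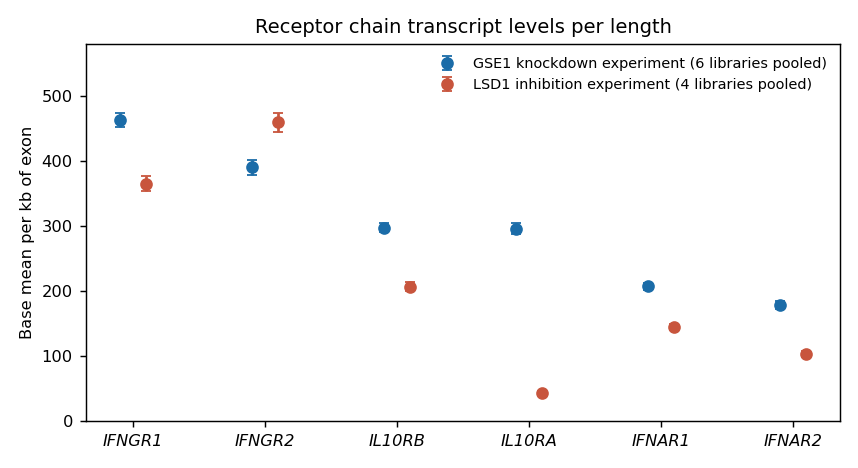
Base mean per kb of exon for each receptor chain (vertical axis, linear from 0) in the GSE1 knockdown experiment (blue, 6 libraries pooled) and the LSD1 inhibition experiment (red, 4 libraries pooled), with bars for the 95% counting interval. IL10RA lies at 296 in blue and 42.8 in red, whereas the points of each other chain lie closer together. The tables were scaled separately.

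Against the protein-coding genes whose base mean was 1 or more, all 6 chains stood above the middle of the range of levels per length in the knockdown experiment, whereas IFNAR1, IFNAR2 and IL10RA stood below it in the inhibition experiment. In the knockdown experiment they were at percentiles 69.0 (IFNGR1), 65.5 (IFNGR2), 60.2 (IL10RB), 60.1 (IL10RA), 53.0 (IFNAR1) and 50.5 (IFNAR2) of 14692 genes. In the inhibition experiment the percentiles were 70.5 for IFNGR2, 66.6 for IFNGR1, 55.6 for IL10RB, 49.6 for IFNAR1, 44.5 for IFNAR2 and 34.5 for IL10RA among 14840 genes. The median gene had 173 per kb in the first table and 148 in the second. Which chains stood above the middle depended on the minimum of 1. With a minimum of 10, IFNAR1 (percentile 44.5) and IFNAR2 (41.5) were below the middle in the knockdown experiment as well. With no minimum, all 6 chains were above it in the inhibition experiment too, the lowest being IL10RA at 50.2.

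Ratios of the chains of 1 receptor do not depend on how the tables were scaled to each other. For the type I interferon receptor, IFNAR1 over IFNAR2 was 1.16 per length in the knockdown experiment (95% counting interval 1.12 to 1.21) and 1.40 in the inhibition experiment (1.32 to 1.49). For the interferon gamma receptor, IFNGR1 over IFNGR2 was 1.19 (1.14 to 1.23) and 0.795 (0.760 to 0.831), so that the more abundant chain was a different one in each experiment. For the IL10 receptor, IL10RA over IL10RB was 0.995 (0.960 to 1.03) and 0.207 (0.189 to 0.227), and in the LSD1 inhibition experiment the ligand-binding chain was thus the scarcer one by a wide margin. These ratios depend on the length assigned to each gene. With the longest coding sequence in place of the exon length, IL10RA over IL10RB was 0.395 and 0.0823, and with mean transcript length, IFNAR1 over IFNAR2 was 0.905 and 1.09.

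The experiments were set side by side as CPM, here base means scaled to a sum of 1000000 over the protein-coding genes. They were scaled separately and differ in transduction, in time and in agent, and these cannot be told apart, so the ratios are given as a description with no test. IL10RA had 27.1 CPM in the knockdown experiment and 3.87 in the inhibition experiment, a ratio of 7.00 (95% counting interval 6.41 to 7.66). Of 10916 protein-coding genes whose base mean was 50 or more in both tables, only 4 had a higher ratio. Among them, named after their values were seen, were ZFP91-CNTF (11.8), AC091959.3 (7.39) and the interferon-induced antiviral gene IFIT2 (8.12).

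The other chains did not stand out in this way. The ratio of the knockdown to the inhibition experiment was 1.75 for IFNAR2, 1.46 for IL10RB, 1.45 for IFNAR1, 1.29 for IFNGR1 and 0.861 for IFNGR2, the one chain with a lower CPM in the knockdown experiment. Over all the genes compared the median ratio was 1.06, with 5th and 95th percentiles of 0.656 and 1.85, and all 5 of these chains fell inside that range. IFNAR2 was nearest its upper end, at percentile 93.6. Together the 6 chains had 183 CPM in the knockdown experiment and 123 in the inhibition experiment, or 156 and 119 without IL10RA. In bulk RNA, fewer cells that carry a transcript and less of it per cell cannot be told apart.

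In the genome (hg38, GENCODE release 44), 4 of the 6 chains lie in a row on the plus strand of chromosome 21 within 274 kb. Their order is IFNAR2 (chr21:33205282-33265675), IL10RB (chr21:33266367-33311420), IFNAR1 (chr21:33324387-33359864) and IFNGR2 (chr21:33403413-33479348). IFNGR1 lies on the minus strand of chromosome 6 (chr6:137197483-137219449) and IL10RA on the plus strand of chromosome 11 (chr11:117986370-118003037). The ratios of the chains on chromosome 21 ran from 0.861 to 1.75, and those of 11 other protein-coding genes within 500 kb of them, all at a base mean of 10 or more in both tables, from 1.01 to 1.99. Around IL10RA, 10 such genes had ratios from 0.758 to 2.79, the highest being that of MPZL3.

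Annotation overlaps limit how far reads of these chains can be assigned. A protein-coding readthrough gene, IFNAR2-IL10RB (AP000295.1 in the tables, chr21:33229892-33297160), shares exons with both of its namesakes, 2038 bases with IFNAR2 and 1732 bases with IL10RB. Its base mean was 331 in the knockdown experiment and 183 in the inhibition experiment, equal to 40.5% and 38.7% of that of IFNAR2 and to 21.5% and 17.1% of that of IL10RB. How reads were divided among these genes was not tested, and the values of IFNAR2 and IL10RB are uncertain by that much from this overlap alone. With this base mean added to both genes, IFNAR2 exceeded IFNAR1 per length in the knockdown experiment. The antisense IL10RB-DT, a noncoding RNA, covers 1803 exon bases of IFNAR2 and had a base mean of 447 and 445, and the 3′ neighbour TMEM50B on the opposite strand covers 380 of those of IFNGR2 and had 279 and 262. The library kit does not mark strand, so reads from these overlaps cannot be told apart. The same holds for 392 exon bases of IFNAR1, which are covered by an unnamed antisense noncoding RNA without a base mean here. No annotated gene shares exon bases with IL10RA or IFNGR1.

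RefSeq start-site windows (GRCh38.p14, 250 bases before to 50 after a start) were found for 5 of the 6 genes, as 7 windows. IFNAR2 had none. The GC box GGGCGG, a motif common at widely used promoters, was searched on both strands and found in 5 of the 7 windows, against 44.95% of 35116 windows of all genes. It was present in the windows of IFNGR2, IL10RB and IFNGR1 and in 1 of the 2 of IFNAR1. One box of several for each of these 4 genes is shown as an example. It is on the gene's strand with the box in capitals (its reverse complement for IFNGR1).
IFNGR2: gcgggacgGGGCGGgggcgggg
IL10RB: gggctggtGGGCGGggcctgca
IFNAR1: gcgcggagGGGCGGtgtgtgtg
IFNGR1: acttgaccCCGCCCacgccctg
These boxes lie 58, 62, 82 and 83 bases before the start in the windows chr21:33403163-33403462, chr21:33266117-33266416, chr21:33324720-33325019 and chr6:137219336-137219635. The boxes not shown lie between 83 bases before the start (IFNGR2) and 29 bases after it (IFNGR1), so the positions of those shown are not a shared trait. The windows of IFNGR1 overlap each other. The IL10RA window (chr11:117989695-117989994) held none, but all 300 of its bases are intronic in GENCODE, and the RefSeq start lies 3575 bases past the GENCODE gene start, so it says nothing of the main promoter. The letters TTCNNNGAA, the core of the gamma interferon-activated site that STAT dimers bind, occurred in 1 window, that of IL10RB, against 7.66% of all windows, and the core of the interferon response element, GAAANNGAA, in 0 of the 7, against 8.11%. A match is a string of letters and no measure of binding.

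Apart from IL10 and IL19 in the knockdown experiment, the ligands of the interferon and IL10 family receptors were below a base mean of 10. Of 17 type I interferon genes, 0 reached a base mean of 10 in either experiment, and 8 were at 0 in the knockdown experiment and 9 in the inhibition experiment. The highest were IFNB1 (3.68 and 2.59), which encodes interferon beta, and IFNA1 (2.697 and 3.75). IFNG, IFNL1, IFNL2 and IFNL3, the type II and III interferon genes, were all at 0 in the knockdown experiment, and in the inhibition experiment IFNG had 0.295. In the IL10 family, IL10 itself had a base mean of 23.0 in the knockdown experiment against 5.63 in the inhibition experiment, and IL19 had 11.9 against 0.955. IL20, IL22, IL24 and IL26 were at 0 in the first and at most 0.251 in the second. For comparison, 63.1% and 63.0% of all protein-coding genes reached a base mean of 10.

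Of the other class II cytokine receptors, 2 of 6 reached a base mean of 10. They were F3, the tissue factor of blood coagulation, which belongs to this structural family (2069 and 1027), and IL20RB, a chain of receptors for IL19, IL20 and IL24 (75.1 and 116). The chain that is specific to interferon lambda, IFNLR1, was at 2.04 and 0.971, IL20RA at 0.295 and 0, IL22RA2 at 0.638 and 0.308, and IL22RA1 at 0 in both.

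The kinases and STATs that act below these receptors ranged from near 0 to high levels. TYK2, which binds IFNAR1 and IL10RB, had a base mean of 20217 and 20596, or 4605 and 4691 per kb, JAK1 had 643 and 309 per kb, JAK2 had 140 and 95.2 per kb, and JAK3, the kinase of common gamma chain receptors, was near 0 at 1.44 and 0.806 as base mean. STAT6, the main STAT of IL4 signaling, had 2244 and 2321 per kb, the highest level of the STAT list. STAT4 had a base mean of 6.24 and 4.65, and IRF9, the DNA-binding subunit of the factor that type I interferons activate, had 144 and 159 per kb. STAT3, the main STAT of IL10, had 1119.5 and 729 per kb, and is named here outside the rule on named genes.

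All 10 inhibitors of these pathways reached a base mean of 10. The phosphatases PTPN6 (3361 and 2728 per kb) and PTPN11 (1316 and 1447 per kb) were highest, and SOCS3 (32.7 and 20.7 per kb), a feedback inhibitor of cytokine signaling, was lowest in both experiments. The next lowest was SOCS2 (49.3 per kb) in the knockdown experiment and SOCS1 (57.3 per kb, with SOCS2 at 59.4) in the inhibition experiment, both of the same family. Of 12 interferon targets, OAS1 was not found among the protein-coding rows, and the other 11 all reached a base mean of 10. ISG15, a ubiquitin-like protein, had 4394 and 4170 per kb, IFIT2 had 840 and 105 per kb, CXCL10, a chemokine, had 37.0 and 18.4 per kb, and GBP1, a guanylate-binding protein, had 3.32 and 15.4 per kb. In the 9 targets whose base mean was 50 or more in both tables, the ratio of the knockdown to the inhibition experiment ran from 1.02 to 8.12 with a median of 1.94, beside the median of 1.06 over the 10916 genes compared. This minimum left out GBP1, whose base mean was lower in the knockdown experiment (11.3 against 52.6), and CXCL10, whose base mean was higher there (43.4 against 21.6). In the 10 inhibitors the median was 1.24, in the 7 STAT and IRF9 genes it was 1.10, and in the 3 Janus kinases 1.49.

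The tables were also checked for the identity of the cells. MPO, the myeloperoxidase of promyelocyte granules, had a base mean of 506765 and 824818, and 6 of the 7 promyelocyte markers reached 10, ELANE being the exception at 1.10 and 3.87. Of all protein-coding genes, 63.1% and 63.0% reached 10. Of those 6 markers, 1 had a ratio of the knockdown to the inhibition experiment above 1. Their median ratio was 0.627, beside 1.06 over the 10916 genes compared. Of 4 monocyte markers, 4 and 3 reached 10, from VCAN (10.0 and 4.62) to FCN1 (1626 and 842). The T cell list ranged from 1.55 to 866 and from 2.98 to 869, with CD3D highest and CD3E lowest, and the B cell list from 0.217 to 1071 and from 0 to 777, with CD79B highest and MS4A1 lowest. Erythroid markers were at most 11.7 in the knockdown and at 0 in the inhibition experiment, and of the epithelial markers EPCAM had 432 and 403. The part of any of these in the IL10RA ratio was not tested. GSE1, the hairpin target, had a pooled base mean of 2963 and 4441, and KDM1A, which encodes LSD1, had 7648 and 6285. Since GSE1 is pooled over EV and hairpin libraries, it does not check the sample labels.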

How the data were processed

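mRNA-seq libraries of NB4 cells were prepared by the authors with a TruSeq kit, mapped to hg38 with STAR (2.7 per the labels), quantified with RSEM and fitted in DESeq2, whose versions and annotation release are not given in the sources used here. The deposited signal is the base mean, the authors' average over all libraries of an experiment of scaled counts. The remaining columns of both tables hold the authors' own log2 fold changes, standard errors, Wald statistics and p-values for shA1 and shB2 against EV and for MC2580 against DMSO, and were not used. No value per library was used, so no test was made. Members and lists were chosen with earlier results of these data known.

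Exon lengths were the union of protein-coding transcripts of GENCODE release 44, which held 60261 of the 60603 gene identifiers and gave lengths for 19515 of 19975 protein-coding genes (97.7%). Exon bases shared between genes were instead counted over all annotated transcripts. The minimum base mean was 1 for percentiles, 50 for ratios between experiments and 10 for detection. Size factors were read from the peaks that single reads make among the lowest base means, a method tested on simulated data. Because these peaks have some width, the scaling differs slightly between genes and the factors are approximate. Counting errors take each base mean times the largest single-read value as its variance, and cover counting only. Named were all receptor chains, genes overlapping them, and the 2 highest and 2 lowest genes per length of each list, with other genes given where a list is short or as stated. Python 3.11.15, numpy 2.4.6 and pandas 2.3.3 were used. Values of some genes that the rule would name are not reported here.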

Additional observations from a re-analysis of the deposited data

How the results depend on the processing

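The order of the chains per length kept 15 of its 15 pairs with the longest transcript as length in both experiments, 12 and 15 (knockdown and inhibition) with mean transcript length, 12 and 13 with the longest coding sequence, and 14 and 15 with the readthrough gene added to IFNAR2 and IL10RB. With the coding sequence IL10RB came first in both. The median percentile of the chains was 60.1 in the knockdown and 52.6 in the inhibition experiment. With 10 as the lowest base mean of the genes compared it was 52.9 and 43.3, and against all protein-coding genes 70.0 and 64.0, since the number of low genes in the comparison changes. Listed genes that reached a base mean of 10 numbered 37 and 35 of 68, with GSE1 and KDM1A counted among them in each experiment. At a base mean of 1 they numbered 43 and 40, and at 50 they numbered 33 and 34. Over all protein-coding genes, 63.1% and 63.0% reached a base mean of 10. Scaled by the median ratio of the 10916 genes with a base mean of 50 or more in both tables, IL10RA was 6.59-fold higher in the knockdown experiment. Under both scalings 5 of the 6 chains were higher there. The median CPM ratio of the 10916 genes was 1.06, so most of them were higher there in CPM as well. The count is therefore not read as a result about the chains. Leaving out a library was not possible, because each value pools all libraries. No paired analysis was possible because the columns carry no replicate numbers and the results come from no test.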
